A study of Mus musculus with 18 samples.

Results

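The urea cycle genes were taken as 8 rows of the 55487 genes in the count table, matched by symbol and not by any measured value. Earlier results of these data were known when the list was chosen. The members were Nags, Cps1, Otc, Ass1, Asl and Arg1, which encode the enzymes, and Slc25a15 and Slc25a13, which encode mitochondrial carriers of the cycle's intermediates. Their mRNA was measured by RNA sequencing of whole liver from 18 male C57BL/6J mice, with 6 mice and 1 library per mouse in each of 3 groups. All mice, bought at 7 weeks of age, received an AAV8 vector whose TBG promoter drives its insert in hepatocytes, so the controls carried a vector as well. CON-GFP mice had the vector with enhanced GFP and a purified control diet, FPC-GFP mice had the GFP vector and the FPC diet, and FPC-LIPA mice had the FPC diet and a vector with human LIPA, the gene of lysosomal acid lipase, in place of GFP. The FPC diet is a high-fat diet with added fructose, palmitate and cholesterol, given with fructose-glucose water as a model of fatty liver disease. The virus was given 1 week before the diet, and livers were taken after 16 weeks of feeding. FPC-GFP against CON-GFP asks what the diet changed, and FPC-LIPA against FPC-GFP what the lipase changed on that diet.

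The urea cycle turns ammonia, which is toxic and is released when amino acids are broken down, into urea for excretion. It begins in the mitochondria, where CPS1 joins ammonia and bicarbonate into carbamoyl phosphate and OTC passes this to ornithine to give citrulline, and it ends in the cytosol, where ASS1, ASL and ARG1 form argininosuccinate, arginine and then urea and ornithine. In the liver these enzymes are most abundant in the hepatocytes around the portal vein, while ammonia that escapes them is taken up near the central vein and fixed into glutamine.

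Total counts per library were between 16632146 and 37739301, and every member had at least 350 counts in every library (the lowest was Nags), so that the spread between mice and not counting sets the precision. Of 7 hepatocyte markers in the table, the most abundant, Alb, which encodes albumin, had a mean of 57553 CPM (counts scaled by TMM to a common library size) in CON-GFP, while Slc22a6 of the kidney proximal tubule had 0 counts in all 18 libraries. The human LIPA insert is not among the genes used here, so the vector was not checked in these counts. The paper itself reports higher activity and protein of lysosomal acid lipase in livers given the LIPA vector. Mouse Lipa was 336 ± 59.3 CPM in FPC-GFP and 300.2 ± 44.8 CPM in FPC-LIPA (SD, n = 6). In 3 of the FPC-LIPA libraries, numbered 36, 37 and 39, the 89 genes of cytosolic ribosomal proteins took 6.49% to 8.16% of counts, against 2.17% to 2.95% in FPC-LIPA 31, 33 and 34 and 1.45% to 1.80% in FPC-GFP. Results of FPC-LIPA against FPC-GFP are therefore also given without these libraries, with 3 FPC-LIPA livers left, where 0.112% of 15246 tested genes were lower and 1.11% higher.

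The members lie on 8 chromosomes. In GRCm38, Nags (ENSMUSG00000048217) lies on chromosome 11 from 102145513 to 102149477, Cps1 (ENSMUSG00000025991) on chromosome 1 from 67123026 to 67231259, Otc (ENSMUSG00000031173) on chromosome X from 10252305 to 10321024, and Ass1 (ENSMUSG00000076441) on chromosome 2 from 31470207 to 31520672. Asl (ENSMUSG00000025533) lies on chromosome 5 from 130011258 to 130029247, Arg1 (ENSMUSG00000019987) on chromosome 10 from 24915221 to 24927484, Slc25a15 (ENSMUSG00000031482) on chromosome 8 from 22375551 to 22398597, and Slc25a13 (ENSMUSG00000015112) on chromosome 6 from 6041218 to 6217173. The only annotated gene that overlaps a member is Gm11586, antisense to Nags, with a mean of 0.682 CPM against 55.4 CPM for Nags itself.

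Promoter windows of 5 members were found in the RefSeq sequences of GRCm38.p6 (Nags, Otc, Ass1, Slc25a15 and Slc25a13), and not those of Cps1, Asl and Arg1. The upstream parts of 4 windows, which lie outside the annotated genes, are shown because Otc, Ass1 and Slc25a15 were lower on the FPC diet and Nags was the member that was lower with LIPA. They are written 5′ to 3′ on the strand of the gene, with matches to the GC box (GGGCGG or its reverse complement CCGCCC) in capitals.
Nags, chr11:102145263-102145512, plus strand: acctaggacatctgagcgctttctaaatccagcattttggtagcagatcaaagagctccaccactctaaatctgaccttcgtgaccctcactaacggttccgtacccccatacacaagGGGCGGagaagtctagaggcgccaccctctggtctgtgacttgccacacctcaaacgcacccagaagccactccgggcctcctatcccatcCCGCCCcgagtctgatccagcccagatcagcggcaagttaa
Otc, chrX:10252055-10252229, plus strand: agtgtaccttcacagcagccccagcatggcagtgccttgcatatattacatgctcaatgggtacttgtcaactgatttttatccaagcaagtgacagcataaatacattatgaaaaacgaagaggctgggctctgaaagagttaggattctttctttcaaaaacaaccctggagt
Ass1, chr2:31470020-31470206, plus strand: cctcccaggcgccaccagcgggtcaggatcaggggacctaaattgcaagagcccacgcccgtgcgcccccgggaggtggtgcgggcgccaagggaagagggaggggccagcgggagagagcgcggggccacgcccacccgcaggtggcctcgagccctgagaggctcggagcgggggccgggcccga
Slc25a15, chr8:22398622-22398871, minus strand: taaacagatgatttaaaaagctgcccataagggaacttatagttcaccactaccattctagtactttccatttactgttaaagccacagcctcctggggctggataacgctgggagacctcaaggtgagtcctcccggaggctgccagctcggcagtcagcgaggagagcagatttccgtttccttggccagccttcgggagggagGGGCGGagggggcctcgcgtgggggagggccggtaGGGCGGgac
Slc25a15 is shown for the upstream of its 2 annotated start sites. Slc25a15 and Nags each hold 2 GC boxes in the printed stretch, Ass1 has its only GC box 63 bases before the start site, just past the printed end, and the windows of Otc and Slc25a13 hold no GC box. Of all 32851 windows, 35.7% held a GC box on either strand. The other motifs searched, on both strands, were C/EBP (TTGCNNAA, in 10.8% of all windows), HNF4 (AAAGTCC, 4.21%), glucocorticoid receptor (ACANNNTGT, 6.85%), cAMP response (TGACGT, 7.51%) and ATF4 (TGATGCAA, 0.895%). None of these was matched in any of the 5 members' windows, which says only that these letters are not there.

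The members differed widely in level, and only values per kilobase of gene model can be set beside each other. In CON-GFP the mean was 726 ± 111 CPM per kilobase for Arg1, 646 ± 239 for Ass1 and 286 ± 81.1 for Cps1 (SD, n = 6). Otc followed with 123 ± 19.8, Asl with 118 ± 41.0, Slc25a15 with 58.1 ± 11.6, Slc25a13 with 50.2 ± 10.8 and Nags with 22.8 ± 3.60. Of the neighbours in this order, the ranges of Cps1 and Otc and those of Slc25a13 and Nags did not overlap, while Arg1 was above Ass1 in 3 of 6 libraries and Otc above Asl in 3 of 6. In FPC-GFP the ranges of Arg1 (472 ± 53.9) and Ass1 (295 ± 50.5) no longer overlapped. The carriers changed places: Slc25a15 was above Slc25a13 in 5 of 6 CON-GFP libraries, and Slc25a13 was above Slc25a15 in 6 of 6 FPC-GFP and 5 of 6 FPC-LIPA libraries. In FPC-LIPA the order was that of FPC-GFP, from Arg1 at 566 ± 221 down to Nags at 14.1 ± 4.23 CPM per kilobase, and the ranges of Arg1 and Ass1 were again apart. These values divide by all annotated exons of a gene, so a gene whose long exons are little used would read low. Asl has 8 annotated transcripts, and which exons of the members were used was not tested.

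On the FPC diet, all 8 urea cycle genes had a lower mean and 5 of them passed the test. Of the members, Ass1, Asl and Slc25a15 were at 45.3% to 47.9% of their control level, Arg1 was at 64.7% and Otc at 67.8%, and Nags, Cps1 and Slc25a13 did not pass. No member was higher, at an unadjusted p under 0.05 or with the DESeq2 Wald test either. An adjusted p under 0.05 (edgeR's quasi-likelihood test with Benjamini-Hochberg adjustment over 14307 genes) and a lower level were found for 10.9% of all tested genes, and 12.9% were higher. Differentially expressed genes by the study's thresholds, with a fold change of at least 2 as well, were 3 members, all lower, against 2.44% of all genes lower and 4.76% higher. The median log2 fold change was -0.59 over the members and 0.01 over all tested genes. The members' counts made up 0.605% ± 0.105 of all counts in CON-GFP and 0.418% ± 0.0440 in FPC-GFP (SD, n = 6). In RNA of whole liver, fewer hepatocytes and less mRNA per hepatocyte cannot be told apart.

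**Figure D1:**
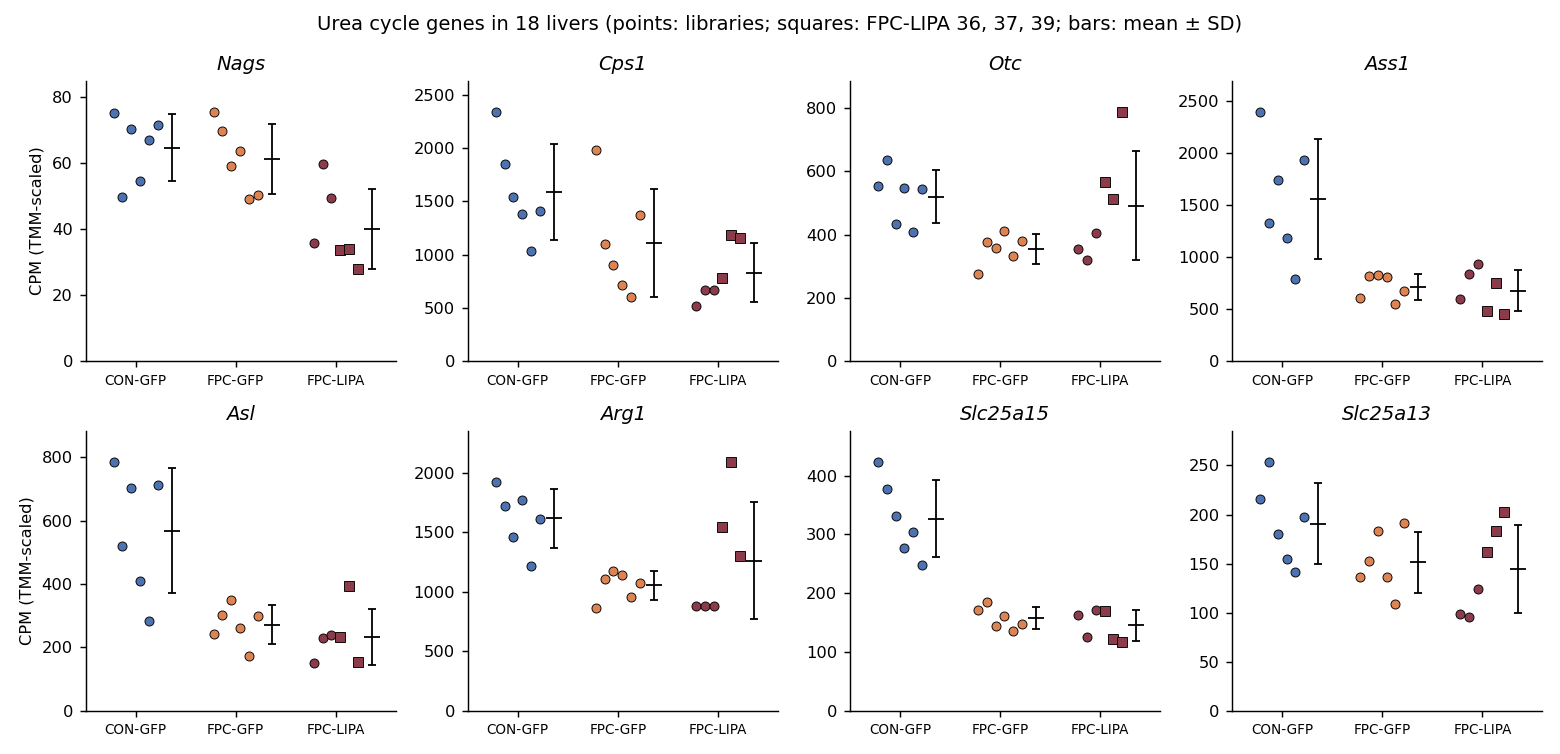
Each panel plots the TMM-scaled CPM of a urea cycle gene (y axis, from 0) in every library by group (x axis), with squares for FPC-LIPA 36, 37 and 39 and the mean ± SD (n = 6) beside the points. Slc25a15 and Arg1 were lower in every FPC-GFP library than in any CON-GFP library, and the squares of Otc and Arg1 sit above the other FPC-LIPA libraries.

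Among the mitochondrial enzymes, Cps1 had a wide spread on the diet. Its level was 1031 to 2336 CPM in CON-GFP (median 1474) and 599 to 1980 CPM in FPC-GFP (median 1000.2), and the log2 fold change was -0.53 (SE 0.26, adjusted p = 0.154). FPC-GFP 11 alone, at 1980 CPM, was above 5 of the 6 control libraries, and without it the log2 fold change was -0.77 (adjusted p = 0.0315), which passes the test. Otc, the next enzyme, was 409 to 634 CPM in CON-GFP (median 545) and 276 to 409.8 CPM in FPC-GFP (median 367). It fell by 0.56 on the log2 scale (SE 0.13, adjusted p = 0.00895), and the groups overlapped only at their edges, since the highest FPC-GFP library (409.8 CPM) just passed the lowest CON-GFP library (409 CPM). Nags makes the N-acetylglutamate that CPS1 needs for activity, and its CON-GFP libraries ran from 49.6 to 75.2 CPM and its FPC-GFP libraries from 49.1 to 75.5 CPM. These ranges nearly coincide, with medians of 68.7 and 61.5 CPM and a log2 difference of -0.09 (SE 0.14, adjusted p = 0.652).

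The cytosolic enzymes fell, and the pair that makes arginine fell furthest. Ass1 was 786 to 2392 CPM in CON-GFP (median 1532) and 546 to 828 CPM in FPC-GFP (median 739). Its log2 fold change was -1.14 (SE 0.22, adjusted p = 0.00281), and only CON-GFP 7, the lowest control library, lay within the FPC-GFP range. Asl was 282 to 786 CPM in CON-GFP (median 612) and 173 to 351 CPM in FPC-GFP (median 279.8), and the log2 fold change was -1.08 (SE 0.23, adjusted p = 0.00486), again with CON-GFP 7 as the only control library within the FPC-GFP range. Arg1, which releases urea, was 1219 to 1921 CPM in CON-GFP (median 1665) and 859.9 to 1176 CPM in FPC-GFP (median 1091). Every FPC-GFP library was lower than every CON-GFP library, and the log2 fold change was -0.63 (SE 0.13, adjusted p = 0.00391).

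Of the carriers, Slc25a15, which exchanges ornithine and citrulline across the inner mitochondrial membrane, had the smallest adjusted p of the members. It was 247 to 423 CPM in CON-GFP (median 318) and 136 to 184 CPM in FPC-GFP (median 155), with no overlap, and fell by 1.06 on the log2 scale (SE 0.14, adjusted p = 0.000254). Slc25a13, or citrin, which exports the aspartate that ASS1 uses, was 142 to 254 CPM in CON-GFP (median 189) and 109 to 191 CPM in FPC-GFP (median 145). Its log2 difference of -0.34 (SE 0.17, adjusted p = 0.141) did not pass, and the groups overlapped over much of their ranges. In all, 2 members (Arg1 and Slc25a15) were lower in every FPC-GFP library than in any CON-GFP library, as were 4.41% of all tested genes.

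The spread of the control livers ran through several members at once. CON-GFP 7 was the lowest control library for Cps1, Otc, Ass1, Asl, Arg1 and Slc25a13, and CON-GFP 1 was the highest for Nags, Cps1, Ass1, Asl, Arg1 and Slc25a15. FPC-GFP 19 was the lowest of its group for 6 members, all but Otc and Arg1. Leaving out each library in turn left 5 or 6 members called. The labels carry sample sheet numbers from 55 to 68 except for FPC-LIPA 37, FPC-GFP 20 and CON-GFP 1 and 2. Within the libraries numbered 55 to 68, 4 members passed on the diet, since Otc had an adjusted p of 0.0545 with a log2 fold change of -0.47. The other numbers hold too few libraries to be fitted by themselves.

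With LIPA on the FPC diet, Nags was the only member that passed the test. Nags was 49.1 to 75.5 CPM in FPC-GFP (median 61.5) and 27.8 to 59.7 CPM in FPC-LIPA (median 34.9). It fell by 0.61 on the log2 scale (SE 0.20, adjusted p = 0.0456 over 14620 genes, edgeR's quasi-likelihood test), with 4 FPC-LIPA libraries below every FPC-GFP library. This call lies close to the threshold: it held without FPC-LIPA 33 or 34, was lost without any other single library of either group, and the adjusted p was 0.350 without FPC-LIPA 36, 37 and 39 (log2 fold change -0.33) and 0.104 within sample sheet numbers 55 to 68. Among all tested genes 6.87% were lower and 14.4% were higher. No member changed by at least 2-fold, against 1.11% of all genes lower and 10.3% higher, and no member was lower in every FPC-LIPA library than in any FPC-GFP library, against 3.77%. At an unadjusted p under 0.05, and with the DESeq2 Wald test, 1 member was lower and 0 were higher as well.

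Otc and Arg1 had higher means with LIPA and did not pass. Otc was 319 to 787 CPM in FPC-LIPA (median 459.6, against 367 in FPC-GFP), and the log2 fold change was 0.47 (SE 0.22, adjusted p = 0.130). Arg1 was 876 to 2090 CPM (median 1089, against 1091 in FPC-GFP), and the log2 fold change was 0.26 (SE 0.24, adjusted p = 0.416). The medians of Arg1 were nearly equal, and the higher mean came from 3 libraries above every FPC-GFP library. Cps1 was 521 to 1179 CPM in FPC-LIPA (median 724), and the log2 fold change was -0.42 (SE 0.30, adjusted p = 0.307). Ass1 (456 to 936 CPM), Asl (152 to 395 CPM), Slc25a15 (118 to 172 CPM) and Slc25a13 (95.6 to 203 CPM) had log2 fold changes between -0.21 and -0.07 in FPC-LIPA against FPC-GFP. The median over the members was -0.09, against 0.04 over all tested genes, and the members' share of counts was 0.366% ± 0.0452 in FPC-LIPA (SD, n = 6). Both comparisons share the 6 FPC-GFP libraries, which are their controls or their treated group.

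**Figure D2:**
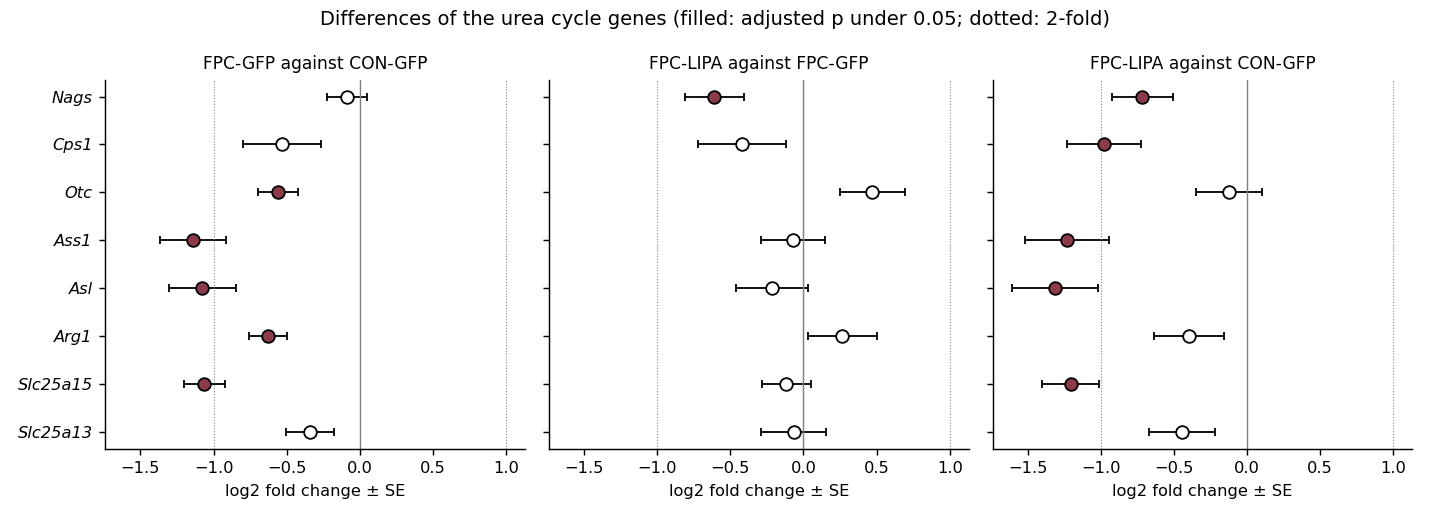
The log2 fold change ± SE (x axis) of each urea cycle gene (y axis) is plotted for the 3 comparisons, with filled points for an adjusted p under 0.05 (edgeR) and dotted lines at a 2-fold change. On the diet 5 points are filled and lie below 0, with LIPA on the diet only Nags at -0.61 is filled, and 5 are filled in FPC-LIPA against CON-GFP.

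Set against the control diet, FPC-LIPA livers had 5 members lower, and these were not the same 5 as in FPC-GFP: Nags and Cps1 passed while Otc and Arg1 did not. The log2 fold change was -1.31 for Asl (SE 0.29, adjusted p = 0.00595), -1.23 for Ass1 (SE 0.29, adjusted p = 0.00737) and -1.21 for Slc25a15 (SE 0.19, adjusted p = 0.000671). Cps1 had -0.98 (SE 0.25, adjusted p = 0.0137) and Nags -0.72 (SE 0.21, adjusted p = 0.0251). Of all 14433 tested genes 8.2% were lower and 14.7% higher, and by the study's thresholds 3 members (Ass1, Asl and Slc25a15) were lower against 3.25% of all genes, with 11.8% higher. Slc25a15 alone was lower in every FPC-LIPA library than in any CON-GFP library, as were 4.84% of tested genes. Otc had -0.12 (SE 0.22, adjusted p = 0.710) and Arg1 -0.40 (SE 0.24, adjusted p = 0.236). Without FPC-LIPA 36, 37 and 39, Arg1 (-0.88, adjusted p = 0.00417) and Slc25a13 (-0.84, adjusted p = 0.0112) passed and Nags did not (-0.42, adjusted p = 0.150), and within sample sheet numbers 55 to 68 only Slc25a15 passed.

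Within FPC-LIPA, several members differed between the libraries with a high and those with a low share of ribosomal protein counts. In FPC-LIPA 36, 37 and 39, Arg1 was 1299 to 2090 CPM against 876 to 879 CPM in FPC-LIPA 31, 33 and 34, and Otc was 514 to 787 CPM against 319 to 405 CPM. Cps1 (778 to 1179 against 521 to 671 CPM) and Slc25a13 (162 to 203 against 95.6 to 124 CPM) were also apart and higher in the libraries with the high share. Nags was apart in the other direction, with 27.8 to 34.1 against 35.7 to 59.7 CPM, and the ranges of Ass1, Asl and Slc25a15 overlapped. These libraries were set apart by the ribosomal share and not by the study, so no test was run. What part the ribosomal share has in the members' levels was not tested. The share of all genes that are apart in this split was not counted, so these ranges do not set the members off from other genes. Without FPC-LIPA 36, 37 and 39, the log2 fold change against FPC-GFP was -0.25 for Arg1 in place of 0.26 and 0.03 for Otc in place of 0.47, and neither passed.

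**Figure D3:**
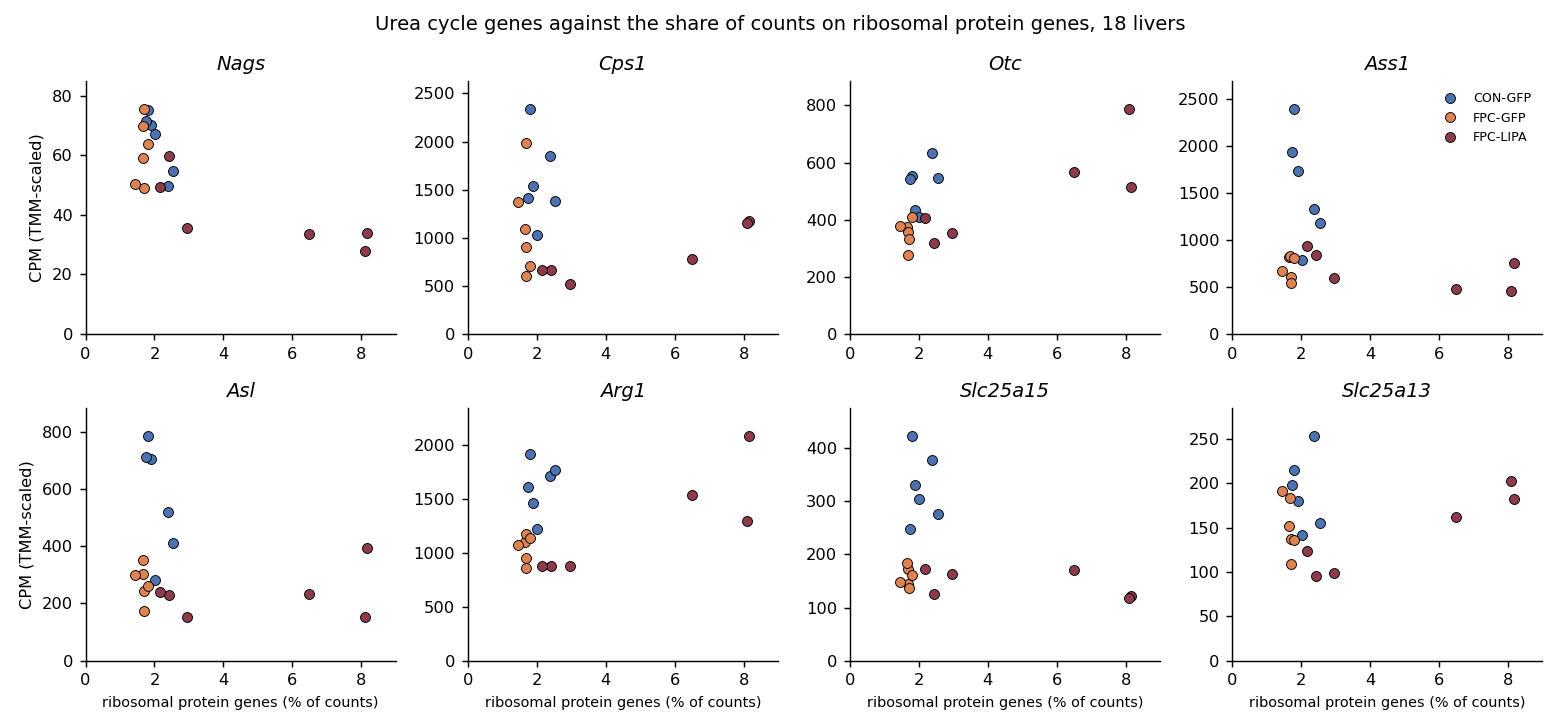
For each urea cycle gene the TMM-scaled CPM (y axis, from 0) is plotted against the percentage of a library's counts on 89 ribosomal protein genes (x axis), with 18 libraries coloured by group. The 3 FPC-LIPA libraries at 6.49% to 8.16% lie to the right of all others, and there Otc is at 514 to 787 CPM and Nags at 27.8 to 34.1 CPM.

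The balance between successive enzymes is a ratio of counts within a library and does not depend on how libraries are scaled. Since gene lengths differ, only its change between groups is read. The log2 ratio of Otc to Cps1 was -2.08 to -1.33 in CON-GFP (median -1.46), -2.84 to -0.80 in FPC-GFP (median -1.44) and -1.20 to -0.46 in FPC-LIPA (median -0.64). Every FPC-LIPA library was thus above every CON-GFP library, with ratios in FPC-GFP spread over both ranges. The log2 ratio of Ass1 to Otc went the other way, with medians of 1.47, 1.05 and 0.65 in CON-GFP, FPC-GFP and FPC-LIPA, and it was below 0 only in FPC-LIPA 36 and 37. Asl to Ass1 had the smallest spread of the 4 ratios in CON-GFP, at -1.61 to -1.30 in CON-GFP and -1.66 to -1.17 in FPC-GFP, while FPC-LIPA ran from -1.98 to -0.93. Arg1 to Asl had medians of 1.51, 1.86 and 2.47 in the 3 groups, with overlapping ranges. These ratios were not tested.

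**Figure D4:**
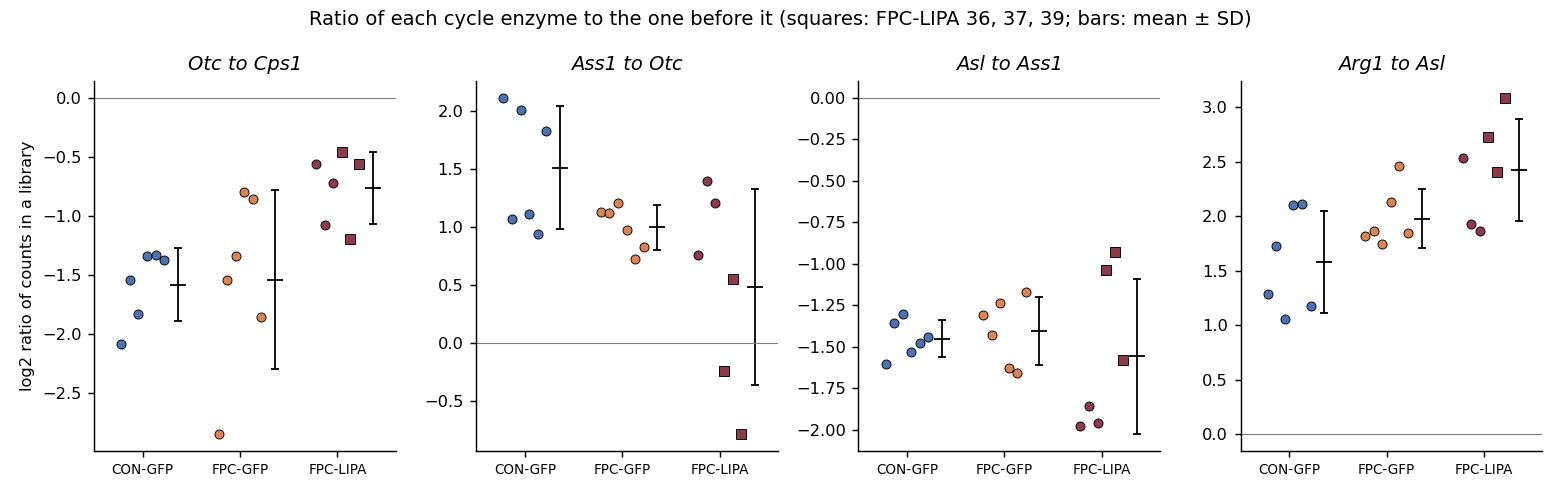
Each panel plots the log2 ratio of counts of an enzyme to the enzyme before it in the cycle (y axis) for every library by group (x axis), with squares for FPC-LIPA 36, 37 and 39 and the mean ± SD (n = 6). The Otc to Cps1 ratios of FPC-LIPA, -1.20 to -0.46, lie above those of CON-GFP, -2.08 to -1.33.

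Genes of nitrogen metabolism around the cycle were also described, from lists chosen with earlier results of these data known. Of 12 genes of ammonia, glutamate and aspartate metabolism, 4 were lower and 2 higher on the diet, with a median log2 fold change of -0.13. Got1, the cytosolic aspartate transaminase, was 87.9 to 555 CPM in CON-GFP (median 181) and 34.2 to 71.6 CPM in FPC-GFP (median 52.3). It fell by 2.12 on the log2 scale (SE 0.36, adjusted p = 0.00122), with no overlap. Oat, which links ornithine to glutamate and proline, fell by 1.35 (SE 0.25, adjusted p = 0.00217), and Gpt, the alanine transaminase, fell by 0.83 (SE 0.15, adjusted p = 0.00196), both without overlap. Gls2, the liver glutaminase that frees ammonia for the cycle, fell by 0.95 (SE 0.20, adjusted p = 0.00421). Higher on the diet were Aldh18a1, of proline and ornithine synthesis, at 2.21 (SE 0.39) from a mean of 0.702 to 3.36 CPM, and, named after its values were seen, Asns, the asparagine synthetase, at 3.05 (SE 0.66). Glud1, the glutamate dehydrogenase (-0.10), and Glul, the glutamine synthetase of the central vein (-0.16), did not pass. With LIPA 1 of the 12 passed, Got2, the mitochondrial partner of Got1, at -0.82 (SE 0.25, adjusted p = 0.0358), named after its values were seen. None of the 12 passed without FPC-LIPA 36, 37 and 39, and Got2 then had -0.39 (adjusted p = 0.180).

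Of 26 genes of enzymes that break down amino acids, 15 were lower on the diet by the test and none was higher. The log2 fold change was negative for all 26, with a median of -0.47, and 11 of them did not pass. Dmgdh, of choline breakdown, was 494 to 621 CPM in CON-GFP and 224 to 342 CPM in FPC-GFP and fell by 1.10 (SE 0.12, adjusted p = 9.41e-05). Agxt, a transaminase of glyoxylate, fell by 1.70 (SE 0.28), Prodh, the proline dehydrogenase, by 1.28 (SE 0.21) and Hal, the histidine ammonia lyase, by 1.19 (SE 0.17) on the log2 scale, all without overlap. The abundant Hpd, of tyrosine breakdown, and Tdo2, of tryptophan breakdown, both fell by 0.58 on this scale. With LIPA, 1 of the 26 passed, Hgd at -0.67 (SE 0.21, adjusted p = 0.0372), named here after its values were seen. Hgd had -0.36 without FPC-LIPA 36, 37 and 39 (adjusted p = 0.200), and none of the 26 then passed.

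Transport and arginine use held calls in both directions. Of 17 genes for transport of amino acids, ammonia and urea, 12 were tested and 4 were lower and 1 higher on the diet, with a median log2 fold change of -0.20. The log2 fold change was -0.82 for the glutamate transporter Slc1a2 (SE 0.17), -0.93 for the glutamine transporter Slc38a2 (SE 0.19) and -1.36 for the ammonium transporter Rhbg (SE 0.41). The other calls, named after their values were seen, were the arginine transporters Slc7a2 at -0.78 (SE 0.22) and Slc7a1 at 1.19 (SE 0.31). With LIPA 2 of the 12 were lower, Slc1a2 at -0.72 (SE 0.19) and the glutamine transporter Slc38a3, which fell by 1.00 (SE 0.30). Neither passed without FPC-LIPA 36, 37 and 39 (adjusted p = 0.143 and 0.156). Of 11 tested genes of nitric oxide, polyamine and creatine synthesis, 2 were lower and 2 higher on the diet, with Gamt at -0.66 (SE 0.15), Agmat at -0.42 (SE 0.12) and Ddah1 at 0.88 (SE 0.18) among them. The other, named after its values were seen, was Srm, of spermidine synthesis, at 0.82 (SE 0.24). With LIPA 1 was lower, Srm at -1.49 (SE 0.34), and 2 were higher, Gatm, of creatine synthesis, at 1.41 (SE 0.27) and Sms, of spermine synthesis, at 1.24 (SE 0.26). Of these, Gatm still passed without FPC-LIPA 36, 37 and 39, at 0.85 (SE 0.18, adjusted p = 0.0440), while Srm (adjusted p = 0.0946) and Sms (0.0943) did not. Of isoforms of the members, Arg2, the mitochondrial arginase, had a mean of only 0.411 CPM over all libraries and a difference with LIPA of 1.56 on the log2 scale (SE 0.56, adjusted p = 0.0585). Without FPC-LIPA 36, 37 and 39 this difference was 0.24 (SE 0.51, adjusted p = 0.833, edgeR's quasi-likelihood test).

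Of 15 transcription factors and other regulators of hepatic nitrogen metabolism, 4 were lower on the diet and none was higher. The log2 fold change was -1.17 for Ppargc1a, a coactivator of the fasting response (SE 0.28), -0.63 for Klf15, a factor for amino acid breakdown (SE 0.18), and -0.51 for Sirt3, a mitochondrial deacetylase (SE 0.13). The fourth, Nr3c1, the glucocorticoid receptor, had -0.53 (SE 0.17) and was named after its values were seen. Lower with LIPA were Hnf4a, a main hepatocyte factor, at -0.98 (SE 0.32, adjusted p = 0.0425), and, named after its values were seen, Cebpa at -0.88 (SE 0.20). Without FPC-LIPA 36, 37 and 39 none of the 15 passed, with Hnf4a at -0.46 (adjusted p = 0.225) and Cebpa at -0.58 (adjusted p = 0.0660).

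**Figure D5:**
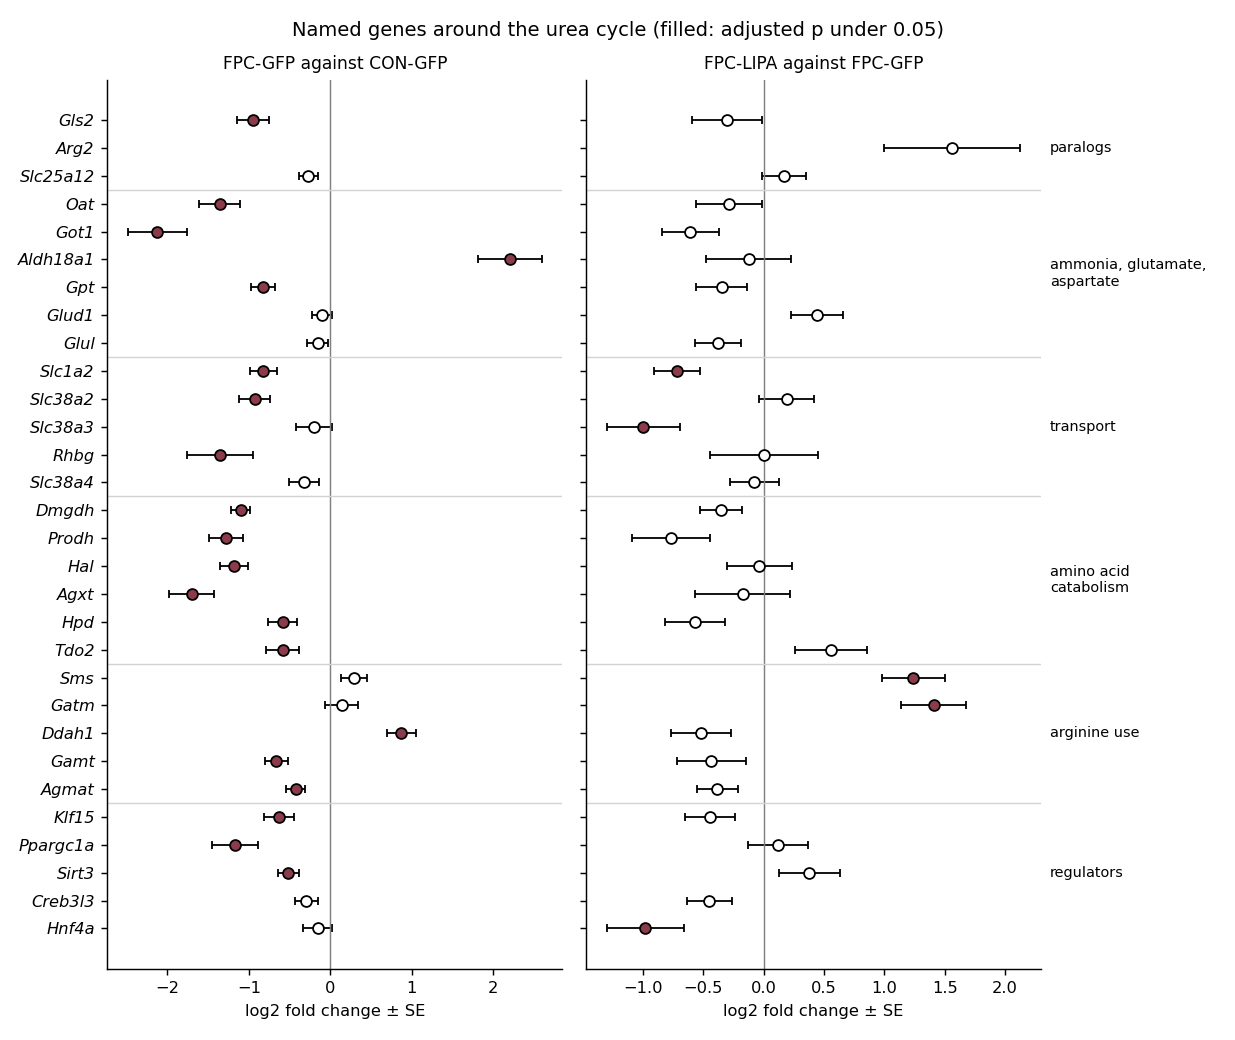
The log2 fold change ± SE (x axis) is plotted for named genes of nitrogen metabolism around the urea cycle (y axis, grouped by list) in FPC-GFP against CON-GFP and FPC-LIPA against FPC-GFP, with filled points for an adjusted p under 0.05 (edgeR). On the diet Got1 at -2.12 is lowest and Aldh18a1 at 2.21 highest of the genes shown, and with LIPA, over all 6 FPC-LIPA libraries, Gatm and Sms are filled above 0.

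Markers of the lobule and of other cell types moved in the same comparisons, and their part in the members' differences was not tested. Of 10 other periportal genes 5 fell on the diet, among them Hal, Gls2, Sds (-1.35) and Uroc1 (-0.50), and Pck1, the most abundant, at -0.85 (SE 0.26). Of 10 pericentral genes 6 fell, among them Gulo (-1.06) and Cyp1a2 (-1.11) and the abundant Cyp2e1 (-0.65), so some genes of each list were lower. The other 5 periportal and 4 pericentral genes did not pass. Of these, the periportal Cyp2f2 (0.06), Hsd17b13 (0.19) and Cdh1 (0.40) and the pericentral Tbx3 (0.32) had log2 fold changes above 0. Among the genes that fell, Hal, Gls2, Sds, Uroc1, Oat, Slc1a2 and Rhbg are also in the lists above. With LIPA 1 of the periportal genes (Cyp2f2, -1.09) and 3 of the pericentral genes (Slc1a2, Cyp1a2 and Gulo) fell. Of 7 hepatocyte markers, 1 fell on the diet (Serpina1a, -0.65) and 1 with LIPA (Ahsg, -0.92), while Alb had -0.15 (SE 0.15) and -0.23 (SE 0.20). In CON-GFP, FPC-GFP and FPC-LIPA their summed level was 74340 to 102360, 64185 to 90234 and 52001 to 78246 CPM.

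All 8 Kupffer cell markers rose on the diet and 3 of them with LIPA (Cd5l, Adgre1 and Clec4f), and in the same order their summed level was 142 to 293, 414 to 695 and 512 to 1090 CPM. Of 8 monocyte and macrophage markers 5 rose in each comparison, Lyz2 and Trem2 among them, with sums of 36.5 to 87.8, 98.5 to 298 and 412 to 727 CPM. Neutrophil markers were near 0, with sums of 1.12 to 2.24, 0.997 to 2.88 and 3.68 to 18.8 CPM, and only S100a8 and S100a9 of 8 were tested. Both rose with LIPA, while Ly6g had 0 counts in 17 and Mpo in 16 of the 18 libraries. Lymphocyte markers summed to 2.05 to 5.18, 1.18 to 6.54 and 8.57 to 13.9 CPM, with none of 4 tested passing on the diet and 2 of 6 (Cd3d and Ms4a1) rising with LIPA.

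Of 8 endothelial markers 5 rose on the diet and none passed with LIPA, with sums of 149 to 239, 214 to 271 and 250.2 to 377 CPM in CON-GFP, FPC-GFP and FPC-LIPA. Of 8 stellate cell markers 3 rose on the diet (Col1a1, Col3a1 and Pdgfrb) and 3 with LIPA (Col3a1, Lrat and Dcn), with sums of 177 to 287, 240.1 to 302 and 313 to 1082 CPM. The other 5 had log2 fold changes below 0 with LIPA and did not pass. The median over the 8 was -0.16, or 0.35 without FPC-LIPA 36, 37 and 39, and the highest sum was that of FPC-LIPA 37. Of 5 tested cholangiocyte markers, Spp1 rose on the diet and none passed with LIPA, with sums of 28.1 to 47.1, 41.6 to 107 and 38.3 to 211 CPM. Of 6 markers of kidney tubule and intestine, which also express some of the members, only Fabp2 was tested. Fabp2 rose with LIPA, by 1.95 on the log2 scale (SE 0.44, adjusted p = 0.0157), or by 0.48 without FPC-LIPA 36, 37 and 39 (adjusted p = 0.203). It made up nearly all of the list's sums in every group, 231 to 472 CPM in CON-GFP, 242 to 374 in FPC-GFP and 349 to 2207 in FPC-LIPA. Slc22a6 was at 0 in all libraries, Umod in 17 and Slc34a1 in 16 of 18. Without FPC-LIPA 36, 37 and 39, the markers of lobule and cell types that still passed with LIPA were Cd5l at 1.08 (adjusted p = 0.0325) and Adgre1 at 1.35 (adjusted p = 0.0418) of the Kupffer cell list and Lyz2 at 1.46 (adjusted p = 0.0418) of the monocyte and macrophage list.

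The genes whose log2 CPM over the 18 libraries was most like that of the members were sought among 7797 other genes with a mean of at least 10 CPM, as a description, since the libraries share groups and depth. For Cps1 they were Aass (Pearson r = 0.86, Spearman rho = 0.89), Serpina3k (0.86 and 0.86), Mup7 (0.84 and 0.85), Hspb8 (0.83 and 0.87) and Serpina3m (0.82 and 0.85). Aass encodes an enzyme of lysine breakdown, and reads of Mup7 and the Serpina3 genes could be shared with their close paralogs. For the mean of the members they were Fgf1 (0.93 and 0.94), Nnmt (0.93 and 0.94), Nat8 (0.93 and 0.89), Gm4737 (0.91 and 0.90) and Got1 (0.90 and 0.84). Nnmt encodes nicotinamide N-methyltransferase of the liver, and Got1 is the only gene of the nitrogen lists among these 5.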

How the data were processed

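RNA of 18 male mouse livers was sequenced, and the values used here are raw counts per gene, as deposited. Per the paper's methods and the submitters' processing notes, the authors trimmed paired reads (Trimmomatic 0.33), aligned them to GRCm38 (HISAT2 2.1.0) and obtained the counts with featureCounts of Subread, without normalization. Stranded and unstranded kits are both named, and the strand setting is not given in the sources used here. How reads were assigned where Nags and its antisense gene overlap is therefore not known. The table has 23 columns, of which 18 were matched to mice by the labels and 5 were not used. Libraries of a group differed by more than sampling noise (chi-square per degree of freedom 15.42 to 590.6), so no 2 were counted as 1.

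Each comparison was fitted on the 12 libraries it concerns with edgeR 4.0.16 (R 4.3.3), using filterByExpr, TMM and the quasi-likelihood test with Benjamini-Hochberg adjustment over all tested genes. The SE is the size of the log2 fold change divided by the square root of F. For CPM, TMM factors of a fit to all 18 libraries were used, and exon lengths came from GENCODE M21 (55141 gene IDs matched). The members, lists and alternatives were chosen with earlier results of these data known. Named were all members, of each list up to 4 genes with the smallest adjusted p under 0.05 and the 2 most abundant, and the 5 genes of most like pattern. Some genes of these lists are not reported here. The LIPA calls of the lists without FPC-LIPA 36, 37 and 39 were added after seeing the data. The test was checked on counts simulated after the diet comparison. It recovered 68 of 100 genes changed 2-fold and 96 of 100 changed 4-fold, and called 10 unchanged genes, so a real 2-fold change can fail to pass. Alternatives were other scalings, DESeq2 1.42.0, edgeR's likelihood ratio test, other filters, thresholds and sets of libraries, and a correction for trends of counts on gene length. Python 3.11.15, pandas 2.3.3, numpy 2.4.6, scipy 1.17.1 and matplotlib 3.10.9 made the tables and figures.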

Additional observations from a re-analysis of the deposited data

Results flagged for a closer look

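Asl in FPC-LIPA 39 stood far from the rest of its group, at 394.5 CPM, while the other 5 ran from 152 to 240.3 CPM. The gap was 0.635 of the group's range, above the 95% critical value of Dixon's test for 6 samples. Of 42 groups of values examined 1 was marked in this way, and chance marks about 1 in 20. FPC-LIPA 39 is also among the libraries with a high share of ribosomal protein counts. Without it, the log2 fold change of Asl in FPC-LIPA against FPC-GFP was -0.44, which did not pass (adjusted p = 0.175, edgeR quasi-likelihood test).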

How the results depend on the processing

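The number of members called on the diet, 5, was 3 with a minimum fold change of 2 and 3 with all 18 libraries in one fit, where Otc (adjusted p = 0.0927) and Arg1 (0.0703) were lost, and it was 5 to 6 with each library left out in turn. With LIPA on the diet, the 1 member called became 0 with a minimum fold change of 2, with an adjusted p under 0.01, with upper-quartile factors (Nags adjusted p = 0.0695), with library size alone (0.0870), with no filter on low counts (0.0630), in sample sheet numbers 55 to 68 and without FPC-LIPA 36, 37 and 39, and it was 0 to 1 with each library left out. In FPC-LIPA against CON-GFP the 5 called became 3 with a minimum fold change of 2, 3 at an adjusted p under 0.01 and 1 in sample sheet numbers 55 to 68, and 4 to 5 with each library left out. Directions turned for differences within their error. Nags on the diet had 0.10 with library size alone, and with LIPA Ass1 had 0.16 without FPC-LIPA 36, 37 and 39, 0.00427 without FPC-LIPA 36 and 0.0121 without FPC-LIPA 37 (-0.20 to 0.0121 with each library left out). With LIPA, Arg1 had -0.25 without FPC-LIPA 36, 37 and 39, and Slc25a13 had 0.00365, 0.0187 and 0.0242 without FPC-GFP 20, FPC-LIPA 31 and FPC-LIPA 33 (-0.20 to 0.0242). Except for the fit with library size alone, these fits also had fewer samples, and why the directions turned was not tested. The members' share of counts was 0.571% to 0.636% in CON-GFP, 0.410% to 0.433% in FPC-GFP and 0.350% to 0.376% in FPC-LIPA with each library left out. Library size alone moved the median log2 fold change of all genes from 0.01 to 0.21 on the diet and from 0.04 to -0.09 with LIPA, and the split of all calls from 1850 higher and 1560 lower to 3387 and 692 on the diet, and from 2098 and 1004 to 1172 and 266 with LIPA. With LIPA the split was 2282 and 575 with upper-quartile factors and 1715 and 1254 after removal of the length trend, and on the diet that removal gave 1520 and 2002. With all 18 libraries in one fit the diet gave 877 and 475, and LIPA gave 100 and 4 in sample sheet numbers 55 to 68 and 169 and 17 without FPC-LIPA 36, 37 and 39. In FPC-LIPA against CON-GFP, 2120 and 1184 became 2479 and 870 with upper-quartile factors, 2367 and 535 with library size alone and 1839 and 1670 after removal of the length trend. Of the lists around the cycle and of cell types, the genes that passed with LIPA also without these libraries, an alternative chosen after seeing the data, were Gatm, Cd5l, Adgre1 and Lyz2. No paired analysis was possible because the groups share no replicate numbers.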
